A study of Gorilla gorilla gorilla with 13 samples.

Results

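Potassium channel genes were taken as the rows of the count table made on the human build hg38 whose symbol begins with KCN followed by a letter and an ending of letters or digits, without antisense or overlapping transcripts, in a series on basal radial glia in the evolution of the neocortex. The rule gave 95 of 18137 genes, and 88 of them had enough counts to be tested (of 16804 genes tested in all). The genes were compared across 4 sorted cell populations of gorilla cerebral organoids, which are brain-like tissues grown in suspension from pluripotent stem cells. All organoids came from the gorilla induced pluripotent stem cell line GC1 and were collected at week 8 of culture (give or take 3 days), with no genetic change or drug named in the labels. The populations were apical radial glia (aRG, 4 libraries), basal radial glia (bRG, 4 libraries), basal intermediate progenitors (bIP, 3 libraries) and BCL11B-positive neurons (N, 2 libraries), each library from the RNA of 10000 cells sorted by flow cytometry. Besides BCL11B, the antigens used for sorting are not stated in the labels. A single cell line limits the groups as a model, and the labels do not tell whether replicate libraries stem from separate cultures, so a p-value reflects the spread among these libraries, which may be technical.

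Potassium channels let potassium ions leave or enter the cell along their gradient and so set the resting potential and the shape and rate of action potentials. Voltage-gated channels open on depolarization, calcium- and sodium-activated channels open when those ions rise inside the cell, inward rectifiers pass current best near rest, and tandem-pore channels carry a leak current. Auxiliary subunits form no pore of their own but change the gating, the transport or the redox response of the pore subunits. In the developing cortex, radial glia rest at a negative potential with large leak and inward rectifier conductances, and voltage-gated channels accumulate as neurons differentiate.

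Total counts were 5464721 to 12524938 per library. Libraries are listed throughout in the order of their numbers, and the neuron libraries as library 1 and the unnumbered one, whose column carries a number that no neuron label has. Levels are CPM (each count scaled to 1 fixed library total, adjusted by TMM normalization), and ± is the SD over the libraries of a population. The labels were checked against marker lists. The 8 radial glia markers summed to 2976 to 4023 CPM in aRG, 2373 to 4089 in bRG, 134 to 159 in bIP and 123 to 159 in N, and the 8 cortical neuron markers to 578 to 987, 624 to 1044, 3547 to 3896 and 5547 to 5750. The 6 intermediate progenitor markers went against the bIP label, since they summed to 86.8 to 338 CPM there and 515 to 656 in bRG. Most of that gap was EOMES (means 85.3 and 367 CPM), and NEUROG1, NEUROG2 and NEUROD4 were also lower in bIP. PPP1R17 (15.9 and 16.6) and NHLH1 (64.8 and 70.5) had close means. The 7 Cajal-Retzius neuron markers summed to 1335 to 3526 CPM in bIP and 59.7 to 241 elsewhere. RELN made up most of the bIP sum (mean 2048 CPM), and TP73, LHX1, LHX5 and EBF3 were also highest there. CALB2 was higher in N (143) than in bIP (122), and NDNF had means of 7.04 in bIP and 5.42 in aRG. The 7 choroid plexus markers summed to 1600 to 7783 CPM in aRG, 209 to 1241 in bRG and 89.7 to 320 in bIP and N. This sum was mostly TTR (mean 4512 CPM in aRG and 628 in bRG). OTX2, CLIC6, FOLR1 and AQP1 also had their highest mean in aRG. KL was close in aRG and bRG (6.10 and 5.93 CPM), and SLC4A5 went the other way (4.83 in aRG and 15.1 in N). The 7 markers of mesenchyme and vessel wall summed to 160 to 389 CPM in aRG against 32.1 to 149 elsewhere. No gene of these lists was at 0 in every library. The part of these other cells in the results on channel genes was not tested, and in bulk samples fewer cells of a type and less RNA per cell cannot be told apart. Library 3 of bRG stood apart, with a score of 44.3 on the second principal component against -17.1 to 8.31 in the other libraries. It had the fewest genes with a count (16534 against 17055 to 17756) and the fewest channel genes with a count (85 against 89 to 94). Counted on gorilla sequence, MALAT1 took 21.3% of its counts against 6.35% to 10.8% elsewhere. Low values in this library are therefore uncertain, and counts are given with and without it.

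The potassium channel genes together took a larger share of the RNA in bIP and N than in radial glia. Their share of all counts was 0.153%, 0.151%, 0.165% and 0.124% in the aRG libraries, 0.168%, 0.186%, 0.133% and 0.169% in bRG, 0.247%, 0.255% and 0.244% in bIP, and 0.291% and 0.255% in N. The aRG and bRG libraries overlapped, and every bIP and N library lay above every radial glia library.

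**Figure D1:**
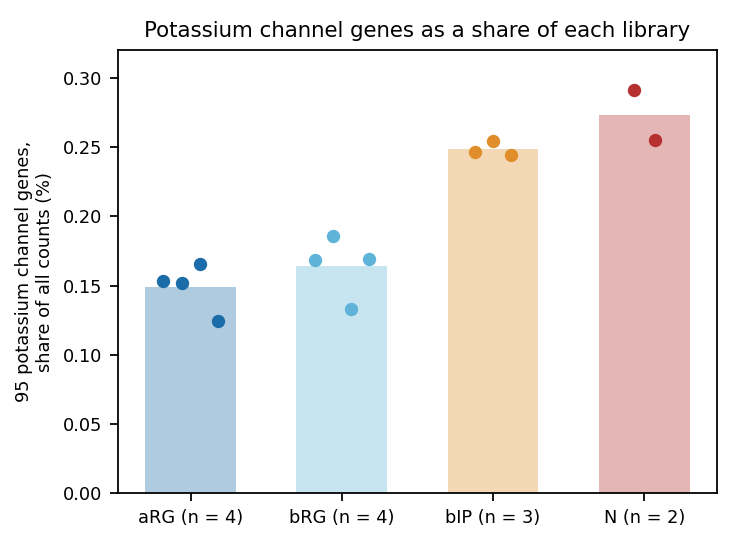
Share of all counts in each library (percent, vertical axis) taken by the 95 potassium channel genes, by population (horizontal axis). Points are libraries and bars their means, 0.149% in aRG, 0.164% in bRG, 0.249% in bIP and 0.273% in N, and no bIP or N point falls below 0.244%.

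Among the 4 populations 31 of the 88 tested members differed by edgeR's quasi-likelihood test (Benjamini-Hochberg adjusted p under 0.05, referred to as called), which is 35.2% of them against 22.5% of all genes tested. Of these 31, 21 had their highest mean in N, 5 in bIP, 3 in bRG and 2 in aRG. Of all genes called among the populations, 39.9% were highest in N, 9.24% in bIP, 17.4% in bRG and 33.5% in aRG. Without bRG library 3 the number of members called was 37, where 29.4% of all genes were called.

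In bIP against aRG 25 members were called higher, where the background was 8.47% of all genes, and 2 were called lower, where it was 9.98%. The median log2 fold change was 0.76 over the 88 members and -0.04 over all genes tested. In bIP against bRG 20 members were higher (8.25% of all genes) and 3 lower (8.44%), with a median of 0.65 against -0.09. In each of these comparisons, and in those of N below, most called members were lower in radial glia. In N against bRG 21 were higher (10.6% of all genes) and 3 lower (9.13%), with a median of 0.51 against -0.09. In N against aRG 22 were higher (10.4% of all genes) and 6 lower (9.37%), with a median of 0.45 against -0.05. These comparisons share libraries, so their counts are not independent of each other. Without bRG library 3 the calls were 30 higher and 3 lower in bIP against aRG (24.6% of all genes called either way), 18 and 3 in bIP against bRG (18.4%), 23 and 5 in N against bRG (26.8%), and 30 and 7 in N against aRG (26.6%). The 18 higher in bIP against bRG lacked KCND3, KCNJ12 and KCNK1, whose calls there ended without that library.

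Calls among the 4 populations were counted by family, where 22.5% of all genes were called. Among the KCNH genes 6 of 8 tested differed among the 4 populations, among the voltage-gated families named Kv1 to Kv4 6 of 15, and among the Kv7 genes 2 of 5. The silent Kv modifiers gave 2 of 9 (22.2%), the calcium- and sodium-activated channels 3 of 8, the inward rectifiers 4 of 16 (25%), the tandem-pore channels 4 of 11 and the auxiliary subunits 4 of 16 (25%), and the shares of the modifiers, inward rectifiers and auxiliary subunits are near that of all genes.

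**Figure D2:**
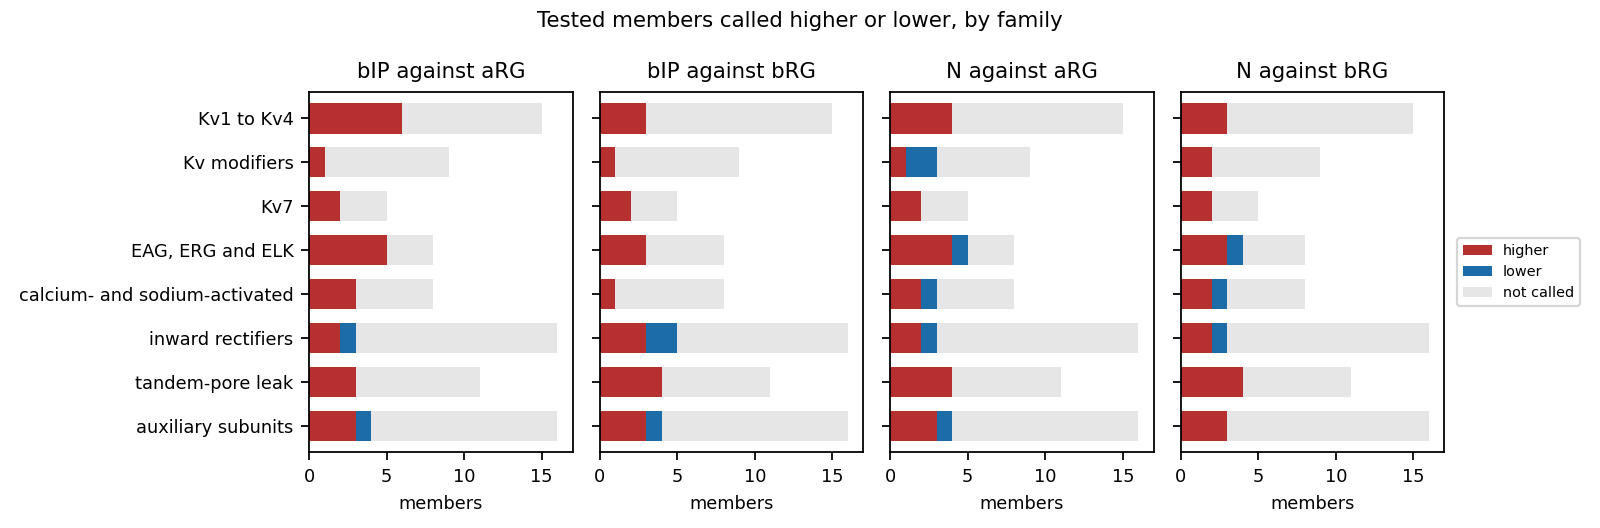
Number of tested members (horizontal axis) called higher (red), lower (blue) or not called (grey) in bIP or N against aRG or bRG, by channel family (rows). The KCNH row (EAG, ERG and ELK) has 5 of 8 members called higher in bIP against aRG (8.47% of all genes). The Kv modifier row has 2 of 9 called lower in N against aRG (9.37%).

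The KCNH genes encode the voltage-gated channels named ether-a-go-go (EAG), ERG and ELK. Of the 8, 5 rose in bIP against aRG (8.47% of all genes) and 3 in bIP against bRG (8.25%). In N 3 rose against bRG (10.6%) and 4 against aRG (10.4%), and 1 fell against each (9.13% and 9.37%). KCNH3, an ELK channel known from the forebrain, had the largest rise of the called members in N against bRG. It measured 28.4, 19.1, 9.77 and 4.43 CPM in aRG, 12.1, 21.0, 11.6 and 5.33 in bRG, 159, 129 and 153 in bIP and 333 and 238 in N. All 5 bIP and N libraries lay far above the 8 radial glia libraries, and both neuron libraries lay above the bIP libraries. The log2 fold change was 4.51 in N against bRG (SE 0.525, edgeR adjusted p = 9.76e-06), 4.23 in N against aRG (SE 0.521, 1.19e-05), 3.56 in bIP against bRG (SE 0.486, 5.11e-05) and 3.27 in bIP against aRG (SE 0.482, 7.52e-05). Between N and bIP it was 0.96 (SE 0.536), with an adjusted p of 0.839.

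KCNH7, an ERG channel of neurons, measured 7.23, 11.4, 14.7 and 17.8 CPM in aRG, 17.4, 12.5, 10.4 and 14.1 in bRG, 33.9, 32.2 and 49.6 in bIP and 57.8 and 62.8 in N. The order was radial glia, then bIP, then N, without overlap between these 3 levels. KCNH7 was not called in N against bIP. With 3 bIP and 2 N libraries, a lack of overlap between them is weak evidence of a difference. It rose by 2.23 on the log2 scale in N against aRG (SE 0.354, edgeR adjusted p = 0.000155), by 2.15 in N against bRG (0.000263), by 1.58 in bIP against aRG (0.00172) and by 1.51 in bIP against bRG (0.00308). KCNH4, another ELK channel, rose by 2.14 and 2.24 in bIP and by 2.69 and 2.79 in N, against aRG and bRG in that order. KCNH2, the ERG channel best known from the heart, rose in bIP (1.44) and N (1.47) against aRG, and these calls ended without aRG library 3 or 4 or bIP library 1 or 2 (adjusted p 0.0632 to 0.0792) in bIP and without aRG library 2, 3 or 4, N library 1 or the unnumbered neuron library (adjusted p 0.0505 to 0.254) in N. KCNH8, the remaining ELK channel, was highest in bIP (39.4 ± 6.58 CPM, n = 3) and was called there against aRG (1.28), a call that ended without bIP library 2 (adjusted p = 0.0545).

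KCNH1, the founding EAG channel, went the other way. It measured 5.60, 4.42, 4.40 and 2.47 CPM in aRG, 3.93, 6.01, 2.12 and 5.04 in bRG, 1.94, 2.33 and 3.06 in bIP and 0.735 and 0.373 in N, and the neuron libraries, which held 6 and 4 counts, were below all others. The log2 fold change was -2.94 in N against bRG (SE 0.763, edgeR adjusted p = 0.0104) and -2.91 in N against aRG (SE 0.763, 0.0105). The first call ended without the unnumbered neuron library (adjusted p = 0.147) and the second without N library 1 or the unnumbered neuron library (adjusted p 0.0505 to 0.147).

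**Figure D3:**
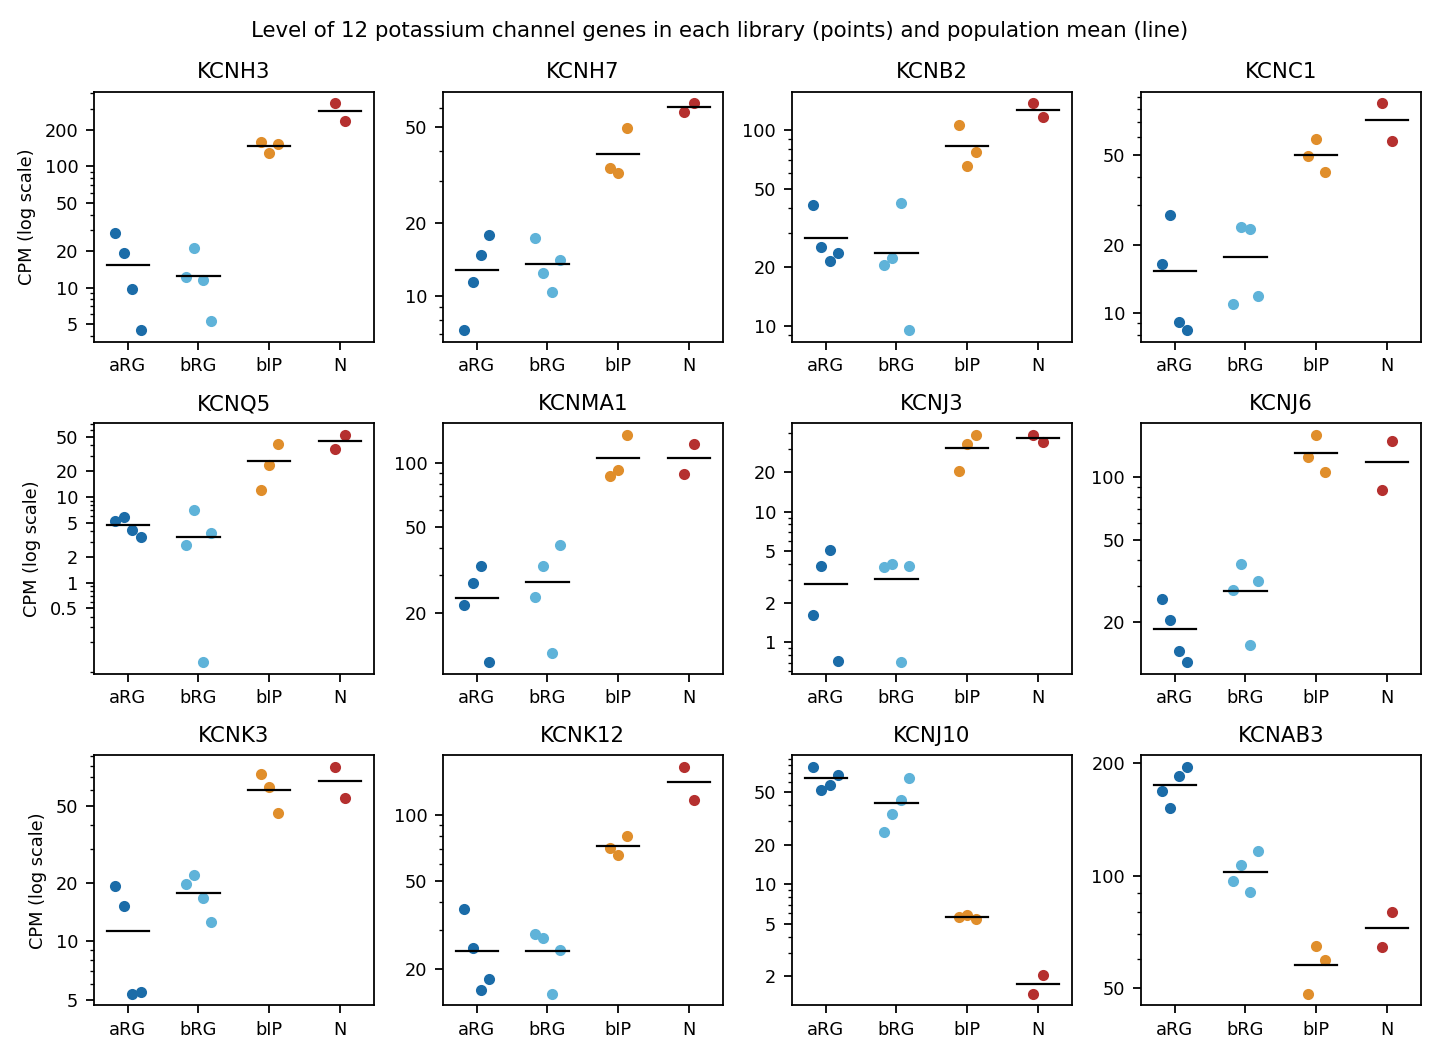
Level (CPM, vertical axis, log scale with its own range in each panel) of 12 potassium channel genes in every library (points) of aRG (n = 4), bRG (n = 4), bIP (n = 3) and N (n = 2), with the mean as a line. In the first 10 panels the bIP and N points lie above the radial glia points, KCNJ10 is lower in bIP and N, and KCNAB3 is highest in aRG.

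The Kv1 to Kv4 families form the classic voltage-gated channels of axons, cell bodies and dendrites. Of 15 tested members 6 rose in bIP against aRG (8.47% of all genes) and 3 in bIP against bRG (8.25%). In N 3 rose against bRG (10.6%) and 4 against aRG (10.4%). None fell in these comparisons, where 8.44% to 9.98% of all genes did. KCNB2, a delayed rectifier that repolarizes the cell body and dendrites, measured 41.6, 25.4, 21.4 and 23.7 CPM in aRG, 20.5, 22.4, 42.2 and 9.52 in bRG, 105, 65.5 and 77.0 in bIP and 137 and 116 in N. The lowest bIP library exceeded the highest radial glia library, and within bRG library 3 was the highest and library 4 the lowest. The log2 fold change was 2.42 in N against bRG (SE 0.412, edgeR adjusted p = 0.000364), 2.18 in N against aRG, 1.81 in bIP against bRG and 1.56 in bIP against aRG.

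KCNC1, which lets neurons fire at high rates, measured 15.3 ± 8.71 CPM in aRG, 17.6 ± 7.16 in bRG, 49.9 ± 8.28 in bIP and 71.1 ± 19.1 in N. It rose by 1.72 in bIP and 2.23 in N against aRG (edgeR adjusted p = 0.00508 and 0.00113) and by 1.50 and 2.01 against bRG. The 2 calls against bRG ended without bIP library 2 (adjusted p = 0.0625) for bIP and without N library 1 (adjusted p = 0.0516) for N. KCNC2, of the same family, was highest in bIP, at 10.4 ± 3.38 CPM against 1.59 ± 0.825 in aRG and 1.54 ± 1.12 in N. The Cajal-Retzius marker sum was also highest in bIP (1335 to 3526 CPM), and its part in this value was not tested. The call of KCNC2 in bIP against aRG (2.67) ended without aRG library 1, 2 or 3 or bIP library 1 or 3 (adjusted p 0.0549 to 0.110). KCND3, a rapidly inactivating A-type channel, rose by 1.67 in bIP and 1.87 in N against aRG and by 1.44 and 1.64 against bRG. Against bRG its calls ended without bRG library 2, 3 or 4 or bIP library 2 (adjusted p 0.0503 to 0.240) for bIP and bRG library 4, N library 1 or the unnumbered neuron library (adjusted p 0.0508 to 0.163) for N, and against aRG without bIP library 2 (adjusted p = 0.115) and N library 1 (adjusted p = 0.0974) in the same order.

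KCND2, the other Kv4 gene of that table, measured 4.15 ± 4.61, 4.30 ± 3.45, 6.81 ± 1.67 and 4.31 ± 1.35 CPM in aRG, bRG, bIP and N and was called in none of the 6 comparisons, with log2 fold changes between -0.66 in N against bIP and 0.68 in bIP against aRG. KCNA2, a low-threshold channel of axons, measured 14.4 ± 1.70, 20.5 ± 4.97, 29.1 ± 4.54 and 18.3 ± 10.7 CPM in the same order. It was called in bIP against aRG (1.01, edgeR adjusted p = 0.0434), and the call ended without aRG library 1, 2, 3 or 4, bRG library 1 or bIP library 1, 2 or 3 (adjusted p 0.0502 to 0.150) and in the table counted on gorilla sequence (0.0748).

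The silent Kv modifiers join the pores of other families and form none alone. KCNG1 rose by 1.63 in N against aRG (edgeR adjusted p = 0.00340), by 1.51 in N against bRG and by 1.10 in bIP against aRG. The last 2 calls ended without N library 1 (adjusted p = 0.0588) for N and without aRG library 3 or 4 or bIP library 1 or 2 (adjusted p 0.0737 to 0.0974) for bIP. KCNF1 rose against bRG, by 2.98 in bIP and 3.08 in N, calls that ended without bIP library 1 (adjusted p = 0.0584) and the unnumbered neuron library (adjusted p = 0.151). KCNS2 and KCNS3 were lower in N than in aRG. KCNS2 had 30, 13, 41 and 35 counts in the aRG libraries and 5 and 0 in N, and KCNS3 had 56, 33, 76 and 63 counts in aRG and 6 and 5 in N. Their adjusted p values were 0.0400 and 0.0426, and the calls ended without aRG library 1, 3 or 4, bIP library 1 or 3 or the unnumbered neuron library (adjusted p 0.0505 to 0.278) for KCNS2 and aRG library 1, 2, 3 or 4, bRG library 4, bIP library 3, N library 1 or the unnumbered neuron library (adjusted p 0.0507 to 0.256) for KCNS3. STK3, which overlaps KCNS2 in the RefSeq gorilla annotation, fell by 2.88 on the log2 scale in the same comparison (edgeR adjusted p = 2.57e-05), and its part in the KCNS2 counts was not tested. The median log2 fold change of the 9 tested modifiers in N against aRG was -1.55, with 1 called higher (10.4% of all genes) and 2 lower (9.37%).

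The Kv7 genes encode the channels of the M-current, which restrains repetitive firing. KCNQ5 rose in bIP and N, and KCNQ3, which also carries the M-current, was not called in any comparison. KCNQ3 measured 119 ± 34.6 CPM in aRG, 153 ± 60.4 in bRG, 105 ± 31.8 in bIP and 217 ± 14.1 in N. Its libraries in N lay above those in aRG and bIP, by 0.87 on the log2 scale against aRG (SE 0.348, edgeR adjusted p = 0.0920) and 1.04 against bIP (SE 0.372, 0.550). KCNQ5 measured 5.24, 5.85, 4.12 and 3.40 CPM in aRG, 2.73, 7.01, 0.118 and 3.81 in bRG, 12.1, 23.8 and 41.8 in bIP and 35.8 and 52.8 in N. Its bIP and N libraries overlapped each other and exceeded all radial glia libraries, and bRG library 3 was the lowest of all. KCNQ5 rose by 2.48 to 3.68 on the log2 scale. Of its 4 calls, that in bIP against aRG ended without bIP library 3 (adjusted p = 0.0719).

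Among the channels opened by calcium or sodium, KCNMA1, the large-conductance (BK) channel, measured 23.5 ± 9.08 CPM in aRG, 27.7 ± 12.2 in bRG, 105 ± 26.5 in bIP and 106 ± 24.3 in N. Every bIP and N library exceeded every radial glia library. KCNMA1 rose by 2.16 in bIP and 2.17 in N against aRG (edgeR adjusted p = 0.000393 and 0.000714) and by 1.92 and 1.93 against bRG (0.00138 and 0.00221). N against bIP differed by 0.01 on the log2 scale (SE 0.441), and their libraries overlapped. KCNN2, a small-conductance channel that gives the afterhyperpolarization, measured 4.91 ± 0.918, 5.41 ± 2.36, 12.7 ± 2.23 and 22.7 ± 0.00270 CPM in aRG, bRG, bIP and N. It rose in N by 2.20 against aRG and 2.07 against bRG (edgeR adjusted p = 0.00194 and 0.00354). Its call in bIP against aRG (1.37) ended without aRG library 1, 2 or 3 or bIP library 1, 2 or 3 (adjusted p 0.0538 to 0.118).

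KCNT1, a sodium-activated channel, measured 4.33 ± 0.889, 6.04 ± 3.34, 11.5 ± 1.93 and 11.9 ± 0.486 CPM in the same order. It was called in bIP against aRG (1.41, edgeR adjusted p = 0.0473), and the call ended in 11 of the 13 removals of 1 library: without aRG library 1, 2, 3 or 4, bRG library 2 or 4, bIP library 1, 2 or 3, N library 1 or the unnumbered neuron library (adjusted p 0.0517 to 0.144). KCNU1, known from sperm, was placed in this family as a relative of the BK channel, not by what opens it. It measured 5.42, 5.57, 4.98 and 2.68 CPM in aRG, 4.61, 7.23, 6.01 and 5.71 in bRG, 8.66, 5.30 and 4.22 in bIP and 0.858 and 0.746 in N. The neuron libraries, with 7 and 8 counts, were the lowest, and the other populations overlapped. The log2 fold change was -2.86 in N against bRG (SE 0.650, edgeR adjusted p = 0.00411) and -2.52 in N against aRG (SE 0.642, 0.00882). These calls ended without the unnumbered neuron library (adjusted p = 0.0681) against bRG and without N library 1 or the unnumbered neuron library (adjusted p 0.0715 to 0.103) against aRG.

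The inward rectifiers held members that rose and members that fell outside radial glia. Of 16 tested members, 2 rose in bIP against aRG, 3 in bIP against bRG and 2 in N against each kind of radial glia, while 1, 2, 1 and 1 fell in bIP against aRG, bIP against bRG, N against bRG and N against aRG. Of all genes, 8.25% to 10.6% rose and 8.44% to 9.98% fell in these comparisons. Counts of 1 or 2 of 16 are near these shares. KCNJ10 is the glial channel that clears potassium released by active neurons. It measured 78.4, 51.7, 56.7 and 67.8 CPM in aRG, 25.1, 34.1, 43.9 and 64.1 in bRG, 5.67, 5.83 and 5.48 in bIP and 1.47 and 2.05 in N. The bIP libraries were close together and far below radial glia, the neuron libraries were lower still, and aRG and bRG overlapped. KCNJ10 fell by 5.15 on the log2 scale in N against aRG (SE 0.478, edgeR adjusted p = 6.93e-07), by 4.55 in N against bRG (SE 0.466, 2.87e-06), by 3.49 in bIP against aRG (SE 0.358, 1.57e-06) and by 2.88 in bIP against bRG (SE 0.348, 1.56e-05). The radial glia markers moved in the same direction, with summed levels of 2373 to 4089 CPM in aRG and bRG and 123 to 159 in bIP and N.

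KCNJ3 and KCNJ6 encode subunits of the G protein-gated channels through which transmitters such as GABA slow neuronal firing. KCNJ6 measured 26.0, 20.6, 14.6 and 12.9 CPM in aRG, 28.5, 38.4, 15.6 and 31.5 in bRG, 125, 160.1 and 106 in bIP and 87.0 and 150.0 in N. Its bIP and N libraries overlapped each other and lay above all radial glia libraries. KCNJ6 rose by 2.82 in bIP against aRG (SE 0.335, edgeR adjusted p = 8.05e-06), 2.19 in bIP against bRG (0.000124), 2.68 in N against aRG (2.59e-05) and 2.06 in N against bRG (0.000397). KCNJ3 measured 1.63, 3.85, 5.07 and 0.722 CPM in aRG, 3.76, 4.00, 0.707 and 3.81 in bRG, 20.3, 33.1 and 38.5 in bIP and 38.6 and 33.9 in N. Here too bIP and N overlapped and stood above radial glia, and the third bRG library was far below the other 3. KCNJ3 rose by 3.42 in bIP and 3.66 in N against aRG (edgeR adjusted p = 0.000298 and 0.000262) and by 3.32 and 3.56 against bRG (0.000511 and 0.000394). The remaining G protein-gated subunits, KCNJ5 and KCNJ9, were tested and not called, at 9.43 ± 3.62 and 10.2 ± 1.04 CPM in bIP against 4.61 ± 3.65 and 5.67 ± 2.73 in aRG.

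KCNJ14, an inward rectifier, was highest in bRG. It measured 9.39, 13.4, 8.23 and 6.70 CPM in aRG, 24.3, 18.6, 21.8 and 17.7 in bRG, 11.2, 5.51 and 8.54 in bIP and 11.3 and 8.30 in N. All 4 bRG libraries lay above the other 9. It fell by 1.29 in bIP against bRG (SE 0.380, edgeR adjusted p = 0.0250), a call that ended without bRG library 1 or bIP library 2 or 3 (adjusted p 0.0611 to 0.136). KCNJ12 rose in bIP against bRG (1.76, edgeR adjusted p = 0.0493), and this call ended without aRG library 1, 2, 3 or 4, bRG library 1, 3 or 4, bIP library 1 or 2, N library 1 or the unnumbered neuron library (adjusted p 0.0508 to 0.214). Reads of KCNJ12 can also come from its near-identical copy KCNJ18, so both are uncertain. KCNJ13, an epithelial channel of choroid plexus, measured 32.1 ± 13.1, 30.4 ± 4.02, 22.0 ± 2.30 and 32.9 ± 8.07 CPM in aRG, bRG, bIP and N and was not called. The choroid plexus markers summed to 1600 to 7783 CPM in aRG. KCNJ13 overlaps GIGYF2 in the RefSeq gorilla annotation, and the part of GIGYF2 in its counts was not tested. KCNJ8, a channel of vessel wall cells, had 0 to 24 counts per library and was not called.

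The tandem-pore channels carry the leak current that holds the resting potential. Of 11 tested members 3 rose in bIP against aRG (8.47% of all genes). In each of the other comparisons of bIP or N with radial glia 4 rose (8.25% to 10.6% of all genes). None fell, where 8.44% to 9.98% of all genes did. KCNK12 is a subunit that gives little current on its own. It measured 37.2, 24.7, 16.0 and 17.8 CPM in aRG, 28.7, 27.5, 15.3 and 24.2 in bRG, 71.1, 66.0 and 80.6 in bIP and 166 and 117 in N. Radial glia, bIP and N formed 3 levels without overlap, but N against bIP was not called. KCNK12 rose by 2.57 in N against bRG (SE 0.336, edgeR adjusted p = 2.91e-05), 2.57 in N against aRG (SE 0.336, 2.21e-05), 1.60 in bIP against bRG (0.00124) and 1.61 in bIP against aRG (0.000968). KCNK3, an acid-sensitive leak channel, measured 19.3, 15.3, 5.36 and 5.46 CPM in aRG, 19.8, 21.9, 16.7 and 12.6 in bRG, 72.6, 62.5 and 45.9 in bIP and 79.7 and 54.9 in N. Libraries 3 and 4 of aRG were the lowest, and bIP and N overlapped above all radial glia libraries. KCNK3 rose by 2.43 in bIP and 2.58 in N against aRG (edgeR adjusted p = 0.000303 and 0.000319) and by 1.76 and 1.92 against bRG (0.00475 and 0.00415). The call in N against bRG ended without N library 1 (adjusted p = 0.0649).

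KCNK6 rose by 2.65 in bIP and 2.18 in N against aRG and by 2.02 in bIP against bRG. The call in bIP against aRG was made in every removal of 1 library, and the others ended without aRG library 1, 3 or 4, N library 1 or the unnumbered neuron library (adjusted p 0.0663 to 0.150) for N and without bRG library 1 or bIP library 1 or 2 (adjusted p 0.0840 to 0.129) for bIP against bRG. KCNK10, a leak channel opened by stretch and lipids, rose in N by 1.19 against aRG and 1.44 against bRG, calls that ended without aRG library 1 or 2, N library 1 or the unnumbered neuron library (adjusted p 0.0606 to 0.151) and N library 1 or the unnumbered neuron library (adjusted p 0.0660 to 0.0693). KCNK1 rose against bRG by 1.54 in bIP and 1.67 in N, and these calls ended without aRG library 2 or 4, bRG library 1, 3 or 4, bIP library 1 or 2 or the unnumbered neuron library (adjusted p 0.0506 to 0.131) and aRG library 4, bRG library 1 or 4, bIP library 1, N library 1 or the unnumbered neuron library (adjusted p 0.0503 to 0.260). KCNK2, the stretch-sensitive relative of KCNK10, measured 3.84 ± 1.80, 1.99 ± 1.44, 6.70 ± 4.71 and 5.25 ± 1.76 CPM in aRG, bRG, bIP and N and was not called in any comparison.

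Of 16 tested auxiliary subunits, KCNAB2, KCNMB4 and KCNIP1 rose in each comparison of bIP or N with radial glia, 1 (KCNAB3) fell in 3 of these comparisons, and the other 12 were not called in any. Of all genes, 8.25% to 10.6% rose and 8.44% to 9.98% fell in these comparisons. KCNAB2, a cytosolic beta subunit of the Kv1 channels, measured 12.5, 19.0, 14.7 and 14.2 CPM in aRG, 16.2, 19.1, 6.37 and 11.7 in bRG, 41.8, 47.7 and 45.2 in bIP and 56.3 and 45.1 in N. All bIP and N libraries exceeded all radial glia libraries, and bIP and N overlapped. KCNAB2 rose by 1.75 in bIP against bRG (SE 0.332, edgeR adjusted p = 0.00112), 1.57 in bIP against aRG, 1.92 in N against bRG and 1.74 in N against aRG. The third beta subunit gene, KCNAB3, showed the opposite order. It measured 168, 152, 184 and 195 CPM in aRG, 96.9, 107, 90.2 and 116 in bRG, 48.4, 65.1 and 59.7 in bIP and 64.7 and 80.0 in N. The aRG libraries were above the bRG libraries, and these were above bIP and N, which overlapped. KCNAB3 fell by 1.60 in bIP against aRG (SE 0.221, edgeR adjusted p = 3.95e-05), by 1.27 in N against aRG (SE 0.253, 0.00127) and by 0.83 in bIP against bRG (SE 0.215, 0.0119). The last call ended without bIP library 1 (adjusted p = 0.0806) and in the gorilla-sequence table (0.0749).

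KCNMB4, the neuronal beta subunit of the BK channel, also rose, by 1.25 in bIP and 2.03 in N against aRG and by 1.08 and 1.86 against bRG. The 2 calls in bIP ended without bIP library 1 (adjusted p = 0.0560) against aRG and without bRG library 4 or bIP library 1 or 2 (adjusted p 0.0570 to 0.119) against bRG. KCNIP1, a calcium-binding partner of the A-type channels, rose by 1.23 in bIP and 1.47 in N against aRG and by 1.51 and 1.76 against bRG. These calls ended, in that order, without aRG library 2, 3 or 4, bIP library 1, 2 or 3, N library 1 or the unnumbered neuron library (adjusted p 0.0575 to 0.183), without aRG library 2 or 4, N library 1 or the unnumbered neuron library (adjusted p 0.0654 to 0.166), without bIP library 3 (adjusted p = 0.0820) and without the unnumbered neuron library (adjusted p = 0.0839). KCNIP4, of the same family, measured 2.07 ± 0.364, 3.39 ± 1.48, 5.27 ± 2.00 and 5.21 ± 0.949 CPM in aRG, bRG, bIP and N and was not called (edgeR adjusted p = 0.100 in bIP against aRG). KCNE2, a small subunit known from choroid plexus and stomach, measured 1.37 ± 0.789, 2.10 ± 1.71, 0.739 ± 0.524 and 0.464 ± 0.136 CPM in the same order and was not called.

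**Figure D4:**
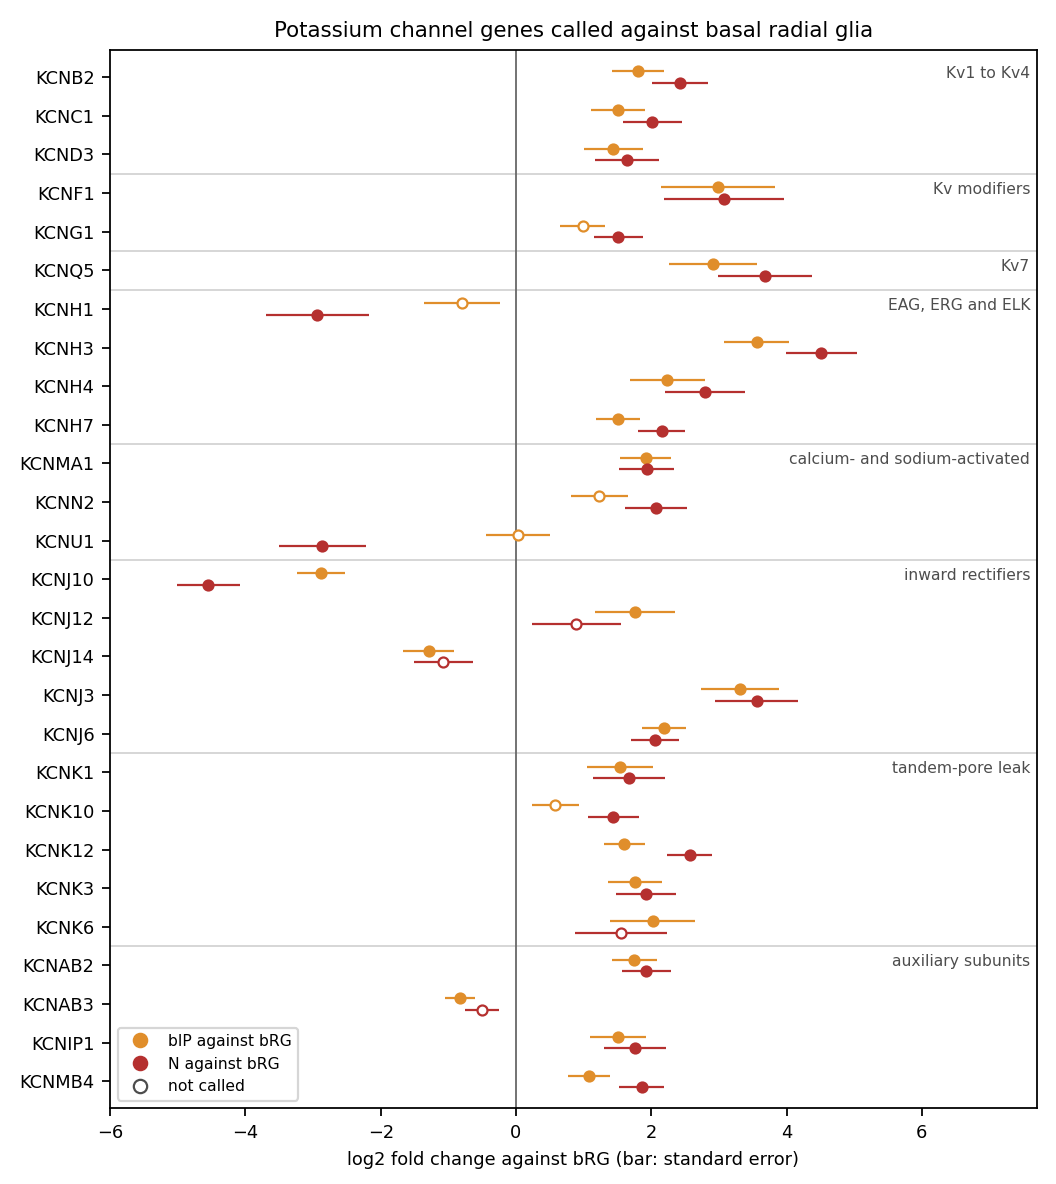
Log2 fold change (horizontal axis, bars are standard errors) of 27 of the 28 members called in bIP (orange), in N (red) or in both against bRG, grouped by family; open circles were not called in that comparison. KCNH3 reaches 4.51 and KCNJ10 -4.55 in N, and 5 members (KCNH1, KCNU1, KCNJ10, KCNJ14 and KCNAB3) lie below 0 where called.

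In bRG against aRG no member was called by edgeR, higher or lower, where 0.0298% of all genes were called higher and 1.23% lower. At an unadjusted p under 0.05 there were 8 of the 88 members, 4 in each direction. Of the 16804 genes tested, 1592 were under it, 551 higher and 1041 lower. DESeq2 called 2 members (2.66% of all genes). The median log2 fold change was 0.15 over the members and 0.04 over all genes tested. KCNAB3 had the smallest p, with 175 ± 19.1 CPM in aRG and 103 ± 11.4 in bRG (n = 4 each) and a difference of -0.77 on the log2 scale (SE 0.196, edgeR adjusted p = 0.0706). Its 4 aRG libraries were all above its 4 bRG libraries, and DESeq2 gave an adjusted p of 0.00715. KCNJ14 averaged 9.44 ± 2.87 CPM in aRG and 20.6 ± 3.02 in bRG, so that bRG was higher by 1.13 on the log2 scale (SE 0.344) without overlap. Its adjusted p was 0.189 by edgeR and 0.0189 by DESeq2. The other members without overlap were KCNA2, higher in bRG, and KCNS2, lower. These make 2 members higher and 2 lower of 88, where 1.51% of all genes were higher and 4% lower without overlap. The choroid plexus markers differed between these populations, at 209 to 1241 CPM in bRG and 1600 to 7783 in aRG, and their part in these values was not tested.

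KCNA10, a voltage-gated channel regulated by cyclic nucleotides, had the third smallest p, through 2 libraries. It had 1, 0, 2 and 1 counts in the aRG libraries and 0, 5, 79 and 12 in bRG, so that the third bRG library, which stood apart in the principal components, held most of them. The edgeR adjusted p was 0.194 in bRG against aRG and 0.0313 among the 4 populations, and without bRG library 3 or 4 the gene did not pass the count filter. Among the 4 populations its call also ended without aRG library 1, 2, 3 or 4 (adjusted p 0.0541 to 0.0655), without bIP library 1 or 2 (0.0590 and 0.0575) and without the unnumbered neuron library (0.0520).

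Neurons were not called different from bIP in any member. In N against bIP 0 of 88 were called by edgeR, where 0% of all genes were called higher and 0.113% lower, and the median log2 fold change was 0.02 over the members and 0.07 over all genes. There were 14 members at an unadjusted p under 0.05, 5 higher and 9 lower. Of the 16804 genes tested, 1115 were under it, 348 higher and 767 lower. DESeq2 called 3 members (0.996% of all genes), all lower in N: KCNAB1 (-1.23), KCNJ10 (-1.72) and KCNU1 (-2.97). By edgeR KCNU1 stood at -2.89 (SE 0.666, adjusted p = 0.139), and it was the 1 member called (0.0483) without bRG library 3, where 0.417% of all genes were called. KCNJ10 had -1.66 (SE 0.435, edgeR adjusted p = 0.247). KCNK12 at 0.97 (SE 0.360, 0.589) and KCNQ3 at 1.04 were among the higher values. With 2 neuron libraries a p above the threshold does not show that the populations are alike.

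**Figure D5:**
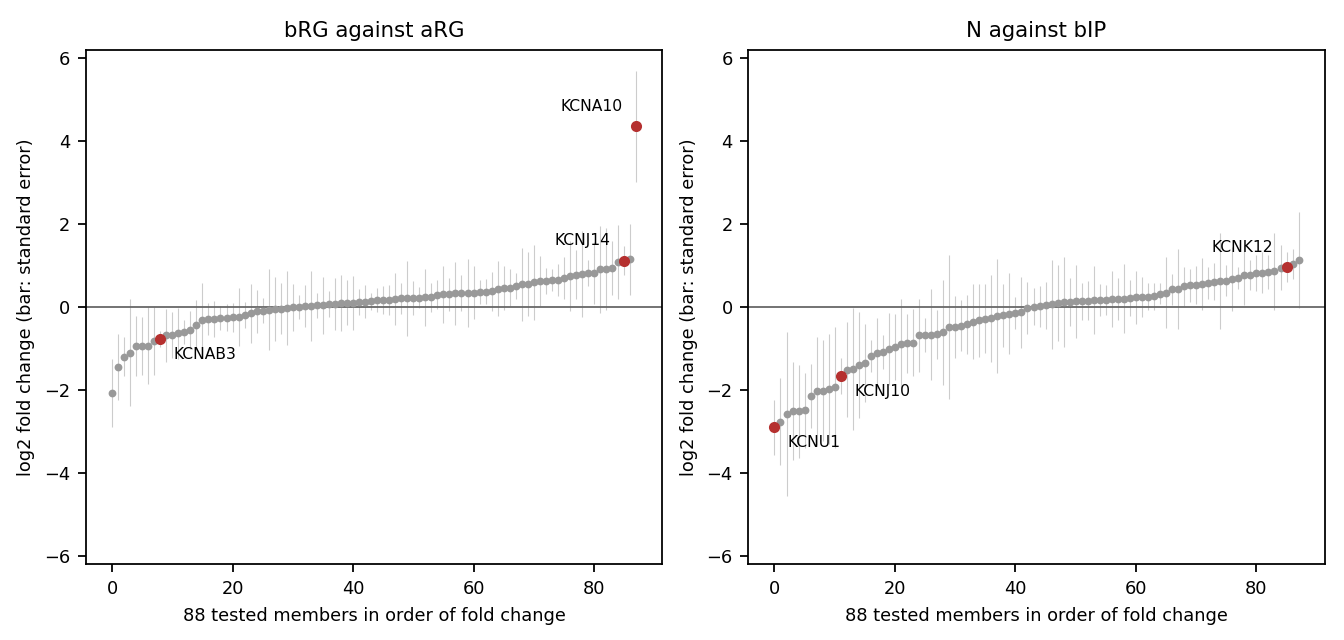
Log2 fold change (vertical axis, bars are standard errors) of the 88 tested members in order of size (horizontal axis), in bRG against aRG (left) and N against bIP (right). Named members in red include KCNAB3 (-0.77) and KCNJ14 (1.13) on the left and KCNU1 (-2.89) on the right, and no member was called by edgeR in either panel.

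Genes that work with potassium channels but lie outside the KCN symbols were read from 3 lists. Of 21 tested channel partners (cell adhesion, scaffold and accessory proteins), 6 rose in bIP against aRG (8.47% of all genes), 2 in bIP against bRG (8.25%), 3 in N against bRG (10.6%) and 5 in N against aRG (10.4%), with 1 lower in N against each kind of radial glia (9.13% and 9.37%), and 0 were called in bRG against aRG and N against bIP. CNTNAP2, which clusters Kv1 channels along axons, rose by 3.23 in N against aRG (edgeR adjusted p = 2.45e-06) and 2.32 in bIP against aRG. ANK3, the scaffold of the axon initial segment that anchors Kv7 channels, rose by 2.61 and 2.47 in the same comparisons (1.90e-06 and 1.33e-06). DPP10, an accessory subunit of A-type channels, rose by 1.99 and 1.52, and LGI1, a secreted protein that binds Kv1 complexes, fell by 1.64 in N against aRG (0.0413). The 2 of 21 in bIP against bRG are near the share of all genes. The list medians were 0.22 in bIP and 0.21 in N against aRG, against -0.04 and -0.05 over all genes.

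Of 9 channels that conduct potassium together with other ions or inside organelles, 4 rose in bIP against aRG (8.47% of all genes) and 3 in bIP against bRG (8.25%). In N 3 rose against bRG (10.6%) and 3 against aRG (10.4%). None fell in these comparisons, where 8.44% to 9.98% of all genes did. HCN3 and TMEM175 were among those that rose in bIP and N against both kinds of radial glia, and CNGB1 rose in bIP against aRG. HCN3, a pacemaker channel opened by hyperpolarization, rose by 2.07 in N against bRG (edgeR adjusted p = 0.000392) and 1.75 in bIP against bRG (0.000959). Of 11 tested sodium-potassium pump genes 4 rose and 3 fell in bIP against aRG (8.47% and 9.98% of all genes), 2 and 2 in bIP against bRG (8.25% and 8.44%), and 3 and 2 in N against bRG (10.6% and 9.13%) and against aRG (10.4% and 9.37%). ATP1B1, the common beta subunit, rose by 2.00 in N and 1.49 in bIP against aRG, and FXYD7, a small modulator of the pump in neurons, by 4.20 and 3.69.

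The 7 members that were not tested were KCNA6, listed at 0 in every library, and KCNE1B, KCNG2, KCNK13, KCNK15, KCNK16 and KCNK4, with 17 to 70 counts over all 13 libraries and at most 11 in 1 library. The table counted on gorilla sequence held a median of 173% of the hg38 count for the members. Its library totals over all genes were also larger, at 11835004 to 26173260 against 5464721 to 12524938 on hg38. In it 3 members had under 10% of their hg38 count: KCNIP1 at 0%, KCNJ12 at 2.0% and KCNE1B at 4.5%. The calls of KCNIP1 and KCNJ12 therefore rest on the hg38 table. Counted on gorilla sequence, 24 of 90 tested members were called in bIP against aRG, 22 of them higher. In bIP against bRG 22 were called, 20 of them higher. Against each kind of radial glia 24 were called in N, 21 of them higher. The shares of all genes called there, either way, were 8.05% in bIP against aRG and 7.44% in bIP against bRG. They were 9.31% in N against bRG and 8.97% in N against aRG. These shares are of 38520 genes tested on gorilla sequence, where 16804 were tested on hg38. KCND1, an A-type channel listed in the gorilla table but not in the hg38 table, measured 57.8 ± 13.5 CPM in aRG, 61.3 ± 21.4 in bRG, 192 ± 35.3 in bIP and 193 ± 27.1 in N there. It rose by 1.73 in bIP (SE 0.292, edgeR adjusted p = 0.000338) and 1.74 in N against aRG (0.000750), and by 1.65 and 1.66 against bRG.

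Some members, KCNK12 among them, overlap other genes in the RefSeq gorilla annotation (assembly NHGRI_mGorGor1-v2.1_pri, where 93 of the 95 symbols matched), and whether counting used strand is not stated in the labels. KCNH3 overlaps MCRS1, KCNH7 overlaps GCA, KCNAB2 overlaps NPHP4, KCNJ13 overlaps GIGYF2 and KCNIP1 overlaps KCNMB1. KCNS2 overlaps STK3, KCNAB1 overlaps SSR3, KCNJ9 overlaps IGSF8 and KCNIP4 overlaps PACRGL. Of these partners NPHP4 was also called higher in bIP and N, GCA was called higher in N, and MCRS1 and SSR3 were called lower in bIP against aRG. STK3 was called lower in bIP and N against both kinds of radial glia, and IGSF8 higher in N against both and in bIP against bRG. The antisense gene of KCNH7 held 147% of the counts of KCNH7 in the gorilla table, and that of KCNQ5 104% of the counts of KCNQ5. Both antisense genes were also higher in bIP and N. Their means in aRG, bRG, bIP and N were 12.1, 17.9, 31.4 and 59.7 CPM for KCNH7 and 4.72, 6.80, 19.1 and 34.8 for KCNQ5. The levels and rises of both channel genes are therefore uncertain, and the part of antisense reads in them was not tested. An intronic transcript of KCNIP4 held 173% of the counts of KCNIP4, and the antisense gene of KCNMB2 139% of those of KCNMB2. KCNJ10 lies next to KCNJ9 in that annotation, and KCNA10 next to KCNA2.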

How the data were processed

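The authors deposited raw counts of reads per gene symbol in 2 tables, one on the human build hg38 and one named for the gorilla build gorGor6, for 13 Smart-seq2 libraries without molecular identifiers. STAR and hg38 are named, with no role or version, per the submitters' processing notes. The labels name neither an annotation nor a read counter, and whether strand was used is not stated in them. The hg38 table was the main one, with total counts of 5464721 to 12524938 per library (11835004 to 26173260 in the other), and intervals cover these libraries only. A blank gene row of the gorGor6 table, at most 0.00768% of a library, was left out.

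Counts of all 13 libraries entered 1 edgeR 4.0.16 fit (quasi-likelihood F-test, TMM scaling, filterByExpr with a minimum count of 10, R 4.3.3) with a mean per population. P-values were adjusted by Benjamini-Hochberg over the 16804 genes tested and called under 0.05. A standard error is the log2 fold change divided by the root of its F. The principal components used log2(CPM + 1) of the 1000 most variable genes. The tests were checked on simulated data. Chi-square per degree of freedom between libraries of 1 population was 11.1 to 98, so none is a copy of another. The labels tie no replicate number to a shared source, so libraries were not treated as paired.

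Members and lists were chosen with earlier results of these data known. Full values were given for up to 4 called members per direction with the smallest p in each comparison, the 3 smallest p in bRG against aRG, and 18 fixed members, some of which are not reported here. Other members are named as family examples, after their values were seen. Alternatives were DESeq2 1.42.0, its size factors, no count filter, the gorGor6 table, the replicate block, fits of 2 populations and removal of each library. 2 fits of the numbered libraries were added after seeing the data. No sequence is printed, and gene positions were used for the overlaps and neighbours named from the RefSeq gorilla annotation.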

Additional observations from a re-analysis of the deposited data

Results flagged for a closer look

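In 3 of 56 groups of 4 libraries (28 named members in aRG and in bRG), or 5.36%, 1 library lay apart from the others by Dixon's criterion, where chance gives about 1 in 20. KCNA10 measured 9.31 CPM in bRG library 3 and 0 to 1.14 in the other bRG libraries. KCNJ3 measured 0.707 CPM in the same library, against 3.76 to 4.00 in the others, and its calls in bIP and N were made with and without that library. KCNJ8, the channel of vessel wall cells, measured 3.43 CPM in aRG library 2 and 0 to 0.574 in the other aRG libraries.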

How the results depend on the processing

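Of the counts of called members, 2 comparisons that gave 0 by edgeR gave calls elsewhere. In bRG against aRG DESeq2 called 2 members (KCNAB3 and KCNJ14), and the fit with a replicate block and the added fit of numbers 1 and 2 against 3 and 4 called 1 each (KCNAB3, edgeR adjusted p = 0.0411 and 0.0362, where 1.81% of all genes were called under the block). In N against bIP DESeq2 called 3, and removals of 1 library gave 0 to 1. In N against bRG the replicate block gave 14 calls (10.6% of all genes), 13 of them among the 24. It omits the unnumbered neuron library, and the same libraries without a block gave 17 (9.87% of all genes), so fewer libraries are part of that fall. Among the members named by rule, the block ended calls of KCNN2 in bIP against aRG, N against aRG and N against bRG (edgeR adjusted p = 0.0657, 0.0784 and 0.0951) and of KCNMA1 in N against bRG (0.0612), which the same libraries without a block kept. Same-number libraries of different populations correlated by 0.0411 to 0.449 in their deviations from the population means, 10 of 13 pairs above 0.1, and other pairs by -0.379 to 0.379. The best match was a library of the same number for 7 of 12 numbered libraries. Since the labels tie no number to a shared source and 3 pairs were not above 0.1, this is a hint of pairing from the data only. None of the 51 called values of these members changed sign under any alternative run, and 24 of their 76 values that were not called did, such as KCNQ3 in bIP against aRG (-0.39 to 0.04) and KCNA2 in N against aRG (-0.42 to 0.86). Removal of 1 library in turn left 15 of 27 calls in bIP against aRG, 13 of 23 in bIP against bRG, 14 of 24 in N against bRG and 18 of 28 in N against aRG in every removal, among them those of KCNH3, KCNJ10, KCNJ6, KCNJ3, KCNK12, KCNMA1, KCNAB2, KCNB2, KCNH4 and KCNH7 in all 4 comparisons. In the gorGor6 table the calls of KCNA2, KCNN2 and KCNT1 in bIP against aRG, KCNAB3 in bIP against bRG and KCNH1 in N ended, and the median log2 fold change of all genes there was -0.37 in N against bRG and -0.29 in N against aRG. The cause of these changes was not tested. DESeq2's scaling moved the median of all genes by under 0.1 in each comparison. Members with few counts, such as KCNH1 and KCNU1 in neurons, have uncertain fold changes, and 2 neuron libraries limit every comparison of N.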
